A study of Homo sapiens with 9 samples.

Results

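The data described here are the probe sets annotated to PRSS1, PRSS2, TRBC1, EPHB6, KEL and TRPV6, which lie along 1 stretch of chromosome 7, in Affymetrix HU133A arrays of MDA-MB-231 cells. A probe set is a group of short probes summarized to 1 value. All 9 probe sets that carry 1 of these symbols were taken, of 22215 human probe sets on the array. Of the 6 genes, 5 had a probe set of their own: PRSS2 had 2, TRBC1 had 3, and EPHB6, KEL and TRPV6 had 1 each. PRSS1 was covered only by a probe set annotated to PRSS1 and PRSS2 together, so no value of these arrays belongs to PRSS1 alone. The 6 genes stand beside 11963 genes with a probe set of their own. They were selected on their place in the genome and on differences between the 3 groups in these same arrays. Their values are therefore given as a description with intervals and without p-values, and tests are kept for genes outside the group.

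MDA-MB-231 is an established human breast cancer line that grows attached to the dish. The 9 arrays form 3 groups of 3, and each array holds total RNA from its own passage. All 3 groups received 1 µM verapamil, which blocks calcium channels and the drug efflux pump P-glycoprotein, and sensitive cells received nothing else. Cells of the docetaxel-resistant line received 2 nM docetaxel besides the verapamil, and cells of the paclitaxel-resistant line 7 nM paclitaxel besides the verapamil. Docetaxel and paclitaxel are taxanes, which bind and stabilize microtubules. Each resistance is represented by 1 line, the drug doses differ between the resistant lines, and the sensitive cells received no taxane. Line, drug and dose therefore change together, and the errors measure the spread among passages of 1 line.

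Trypsinogens are the inactive precursors of trypsin, the serine protease that the acinar cells of the pancreas secrete to digest protein in the gut. PRSS1 encodes cationic and PRSS2 anionic trypsinogen, and both genes lie inside the T cell receptor beta locus, between its variable segments and its constant segments. TRBC1 is a constant segment of that locus; in T cells it forms the part of the receptor chain that follows the recombined variable region, and its sequence is nearly identical to that of its neighbour TRBC2. EPHB6, an Eph receptor without kinase activity, TRPV6, a calcium-selective channel, and KEL, the protein of the Kell blood group, follow on the far side of the locus. PRSS3, the gene of mesotrypsin on chromosome 9, is a close relative of the trypsinogens and is used below for comparison.

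The trypsinogen genes are near copies of each other, which bears on the trypsinogen values below because short probes can read more than 1 copy. The 250 bases before the start of PRSS1, PRSS2 and PRSS3 are printed because PRSS3 was raised in both resistant lines while the main PRSS2 probe set was high in 1 of them. These windows lie before the transcript start, so their likeness does not show which transcripts the probes read. Transcript and probe sequences were not compared. Sequences are from RefSeq on GRCh38.p14, plus strand, 5′ to 3′. Capitals mark TATAAA on the printed strand and CACCTG on either strand (CAGGTG where it reads in reverse), a letter pattern of the E-box kind that basic helix-loop-helix factors bind.
PRSS1 chr7:142749222-142749471: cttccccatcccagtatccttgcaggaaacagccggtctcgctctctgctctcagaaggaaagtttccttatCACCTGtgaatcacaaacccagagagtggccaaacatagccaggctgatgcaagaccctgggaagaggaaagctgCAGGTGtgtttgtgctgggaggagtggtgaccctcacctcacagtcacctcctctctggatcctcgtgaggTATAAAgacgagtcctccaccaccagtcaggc
PRSS2 chr7:142770720-142770969: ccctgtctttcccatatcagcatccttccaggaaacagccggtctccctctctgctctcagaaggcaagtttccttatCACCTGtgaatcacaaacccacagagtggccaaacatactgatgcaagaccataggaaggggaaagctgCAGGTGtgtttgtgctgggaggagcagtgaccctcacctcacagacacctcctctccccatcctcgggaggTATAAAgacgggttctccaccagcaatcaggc
PRSS3 chr9:33795311-33795560: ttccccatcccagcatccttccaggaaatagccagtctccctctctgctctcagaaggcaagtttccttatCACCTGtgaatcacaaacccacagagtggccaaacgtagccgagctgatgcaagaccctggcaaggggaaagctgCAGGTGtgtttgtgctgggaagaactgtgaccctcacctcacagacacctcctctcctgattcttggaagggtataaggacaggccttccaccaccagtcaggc
In global alignment the window of PRSS2 was 86.7% identical to that of PRSS1 and 85.2% identical to that of PRSS3, and PRSS1 and PRSS3 shared 88.0%. Against PRSS2, the windows of EPHB6, TRPV6 and KEL reached 46.1%, 48.3% and 44.9%. TATAAA began 32 bases before the start in both PRSS1 and PRSS2, and these exact letters are not in the window of PRSS3. At the same place, 32 bases before its start, PRSS3 reads tataag, which differs only in the last letter. Each of the 3 windows held CACCTG once on the printed strand, at 178, 172 and 179 bases before the start in PRSS1, PRSS2 and PRSS3, and once in reverse, at 103, 103 and 104 bases. Among 35116 windows of this length, 6.8% held TATAAA on their own strand and 17.5% held CACCTG on either strand. A match is a description of the letters and not of a bound factor. A promoter entry was found for 5 of the 6 genes, TRBC1 being the one without.

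Across the whole array, the median deposited intensity ran from 33.7 to 43.9, and arrays of 1 group correlated at r = 0.970 to 0.991 over probe sets, which are not independent replicates. Differences are given as log2(intensity + 16) after quantile normalization, with standard errors (SE) and 95% intervals from limma over all 9 arrays. The added 16 understates differences that start from a low intensity. Called means an adjusted p under 0.05 (limma, Benjamini-Hochberg over 22215 probe sets). Over all probe sets, 9.34% were called higher and 8.32% lower in the docetaxel comparison, and 9.21% and 9.37% in the paclitaxel comparison. The counts of gene lists below stand beside these shares. Of 12 genes listed to describe the line, KRT18, an epithelial keratin, read 3640 in sensitive, 3325 in docetaxel-resistant and 3154 in paclitaxel-resistant arrays. Vimentin (VIM), a mesenchymal filament protein, read 8335, 4682 and 5223, a fall of 0.74 on the log2 scale in the docetaxel comparison and of 0.60 in the paclitaxel comparison (adjusted p 0.00254 and 0.00831, limma with Benjamini-Hochberg adjustment). Over 31 probe sets of the 12 listed genes, 1 rose and 3 fell in the docetaxel comparison and 1 rose and 1 fell in the paclitaxel comparison. The list holds low readings too, since 12 of the 31 lay under the array median in sensitive cells. The probe set that rose with paclitaxel, 211627_x_at of the estrogen receptor gene ESR1, did so by 0.59 (adjusted p 0.0186, limma). That call was lost in 5 of 17 alternatives, among them the mean of the gene's probe sets (adjusted p up to 0.584, limma). Over the alternatives the difference ran from 0.10 to 2.72. The other ESR1 probe sets were not called in the paclitaxel comparison. With 3 arrays a group an exact permutation test of a single value cannot give a two-sided p below 0.1.

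PRSS2 was high in the docetaxel-resistant line in the probe sets annotated to it alone. Its probe set 205402_x_at read 301, 371 and 331 in sensitive replicates 1, 2 and 3. In the docetaxel-resistant replicates it read 3009, 3642 and 1673, and in the paclitaxel-resistant ones 356, 285 and 330. The docetaxel-resistant arrays all lay far above the other 6, while the paclitaxel-resistant and sensitive arrays overlapped. Group means were 335 ± 35.0 (SD, n = 3), 2775 ± 1005 and 324 ± 35.8, so the docetaxel-resistant mean was 8.29 times the sensitive one and the paclitaxel-resistant mean 0.967 times. On the log2 scale the docetaxel-resistant line stood 2.87 ± 0.26 (SE) above sensitive cells, with an interval of 2.30 to 3.44. This was the rank 19 increase among all probe sets in that comparison. The paclitaxel difference was -0.06, with an interval of -0.63 to 0.51, and the paclitaxel- minus docetaxel-resistant difference was -2.93 (-3.50 to -2.36), the rank 3 decrease.

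The spread among docetaxel-resistant passages was wide, since replicate 3, at 1673, lay well under replicates 1 and 2 yet above every sensitive and paclitaxel-resistant array. A bulk RNA value cannot tell fewer cells with the transcript from less transcript per cell.

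The other PRSS2 probe set, 216470_x_at, was also highest in the docetaxel-resistant line and differed from the first in the paclitaxel-resistant line. It read 120, 137 and 128 in sensitive replicates, 760, 934 and 473 in docetaxel-resistant replicates and 295, 235 and 245 in paclitaxel-resistant replicates. The 3 groups did not overlap at all. Means were 128 ± 8.60, 722 ± 233 and 258 ± 32.4 (SD, n = 3), or 5.63 and 2.01 times the sensitive mean in the docetaxel- and paclitaxel-resistant lines. The log2 differences were 2.17 ± 0.24 (1.65 to 2.69) and 0.86 ± 0.24 (0.34 to 1.38), and the paclitaxel- minus docetaxel-resistant difference was -1.30 (-1.82 to -0.78). In the paclitaxel comparison this probe set was past the threshold in 10 of 18 alternative settings. It missed it, among others, without sensitive replicate 1 or 3 and without any 1 of the 3 paclitaxel-resistant arrays, with differences of 0.77 to 1.01 when 1 array was left out. Between the resistant lines it was past the threshold in 12 of 18, and missed it with 1 added before the log2 in place of 16, without docetaxel-resistant replicate 1 or 2 and without any 1 of the paclitaxel-resistant arrays. Over all 9 ways of leaving out 1 array the difference was -1.63 to -1.11.

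Within each array the ratio of the first PRSS2 probe set to the other separated the groups. It was 2.60 ± 0.098 (SD, n = 3) in sensitive cells, 3.80 ± 0.23 in the docetaxel-resistant line and 1.25 ± 0.078 in the paclitaxel-resistant line. The lowest docetaxel-resistant ratio, 3.54, exceeded the highest sensitive one, 2.71, and the lowest sensitive ratio, 2.51, exceeded the highest paclitaxel-resistant one, 1.35. The probe sets thus changed unequally. Both end in _x_at, the maker's mark for probe sets whose probes may also match other transcripts, and which transcript each of them read was not tested.

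The probe set annotated to PRSS1 and PRSS2 together, 205869_at, was near the bottom of the scale in every group. It read 12.7, 5.71 and 4.35 in sensitive, 21.4, 10.6 and 13.3 in docetaxel-resistant and 3.19, 17.0 and 15.8 in paclitaxel-resistant replicates. Only 2 of the 9 arrays exceeded the added 16, and the groups overlapped. Differences from sensitive cells were 0.37 ± 0.23 (-0.13 to 0.87) in the docetaxel-resistant and 0.22 ± 0.23 (-0.28 to 0.72) in the paclitaxel-resistant line. With an offset of 1 in place of 16 the docetaxel difference became 0.92 and was still not called. This probe set carries the PRSS2 symbol too, and its docetaxel difference lay well under those of the probe sets annotated to PRSS2 alone. At this intensity it sets no limit on PRSS1, and which transcripts it read was not tested.

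**Figure D1:**
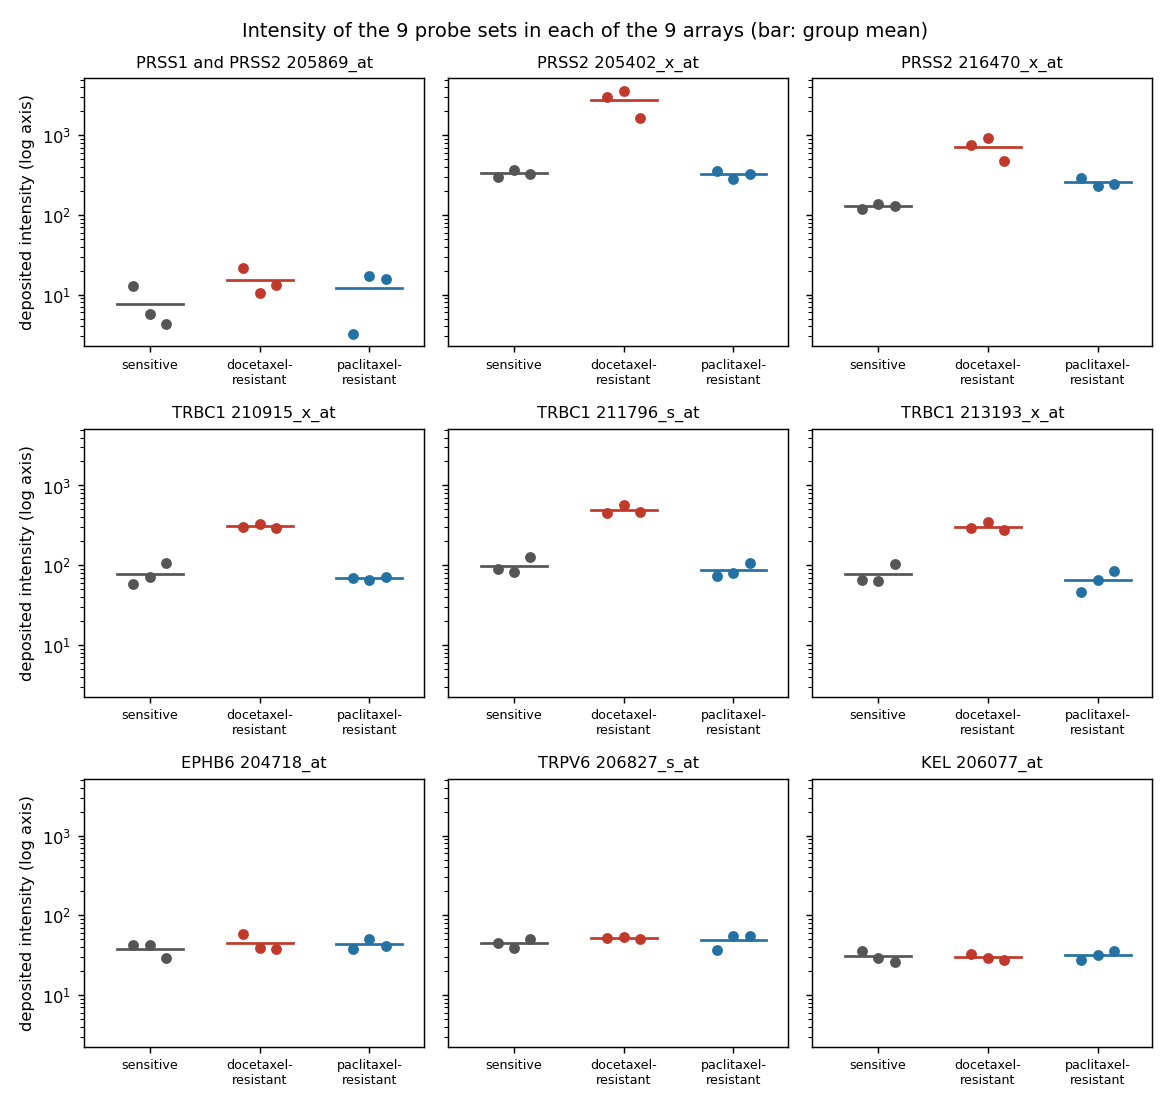
Deposited intensity of each of the 9 probe sets (log axis, shared by all panels) in the 3 arrays of each group; points are arrays and bars are group means. Both PRSS2 probe sets and all 3 TRBC1 probe sets stand highest in the docetaxel-resistant line, PRSS2 216470_x_at is intermediate in the paclitaxel-resistant line, and the EPHB6 and KEL points overlap, while those of TRPV6 lie within 36.5 to 55.7 in all groups.

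PRSS3, which is not among the 6 genes, rose in both resistant lines. Its probe set 207463_x_at read 145, 157 and 142 in sensitive replicates, 497, 567 and 401 in docetaxel-resistant replicates and 498, 497 and 493 in paclitaxel-resistant replicates. The resistant arrays lay above all sensitive ones and the resistant groups overlapped. The rise was 1.48 ± 0.18 on the log2 scale in the docetaxel comparison (adjusted p 0.000208, limma with Benjamini-Hochberg adjustment) and 1.59 ± 0.18 in the paclitaxel comparison (adjusted p 0.000117). Between the resistant lines the difference was 0.11, with an interval of -0.28 to 0.51.

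The other PRSS3 probe set, 213421_x_at, read 221, 248 and 254, then 886, 877 and 637, then 826, 731 and 607 in the sensitive, docetaxel- and paclitaxel-resistant replicates. It rose by 1.55 ± 0.19 and 1.47 ± 0.19 (adjusted p 0.000220 and 0.000321, limma), and its difference between the resistant lines was -0.08 (-0.50 to 0.34). PRSS3P2, a trypsinogen pseudogene in the same locus as PRSS1 and PRSS2, was looked at after its values were seen. Its probe set 215395_x_at read 130, 128 and 108 in sensitive, 472, 682 and 361 in docetaxel-resistant and 291, 305 and 245 in paclitaxel-resistant replicates. It rose by 1.74 ± 0.23 and 1.05 ± 0.23 (adjusted p 0.000373 and 0.00795, limma), and the resistant lines differed by -0.70, which did not pass the test (adjusted p 0.196, limma). Docetaxel-resistant replicate 3 was the lowest of its group in all 5 of these probe sets.

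**Figure D2:**
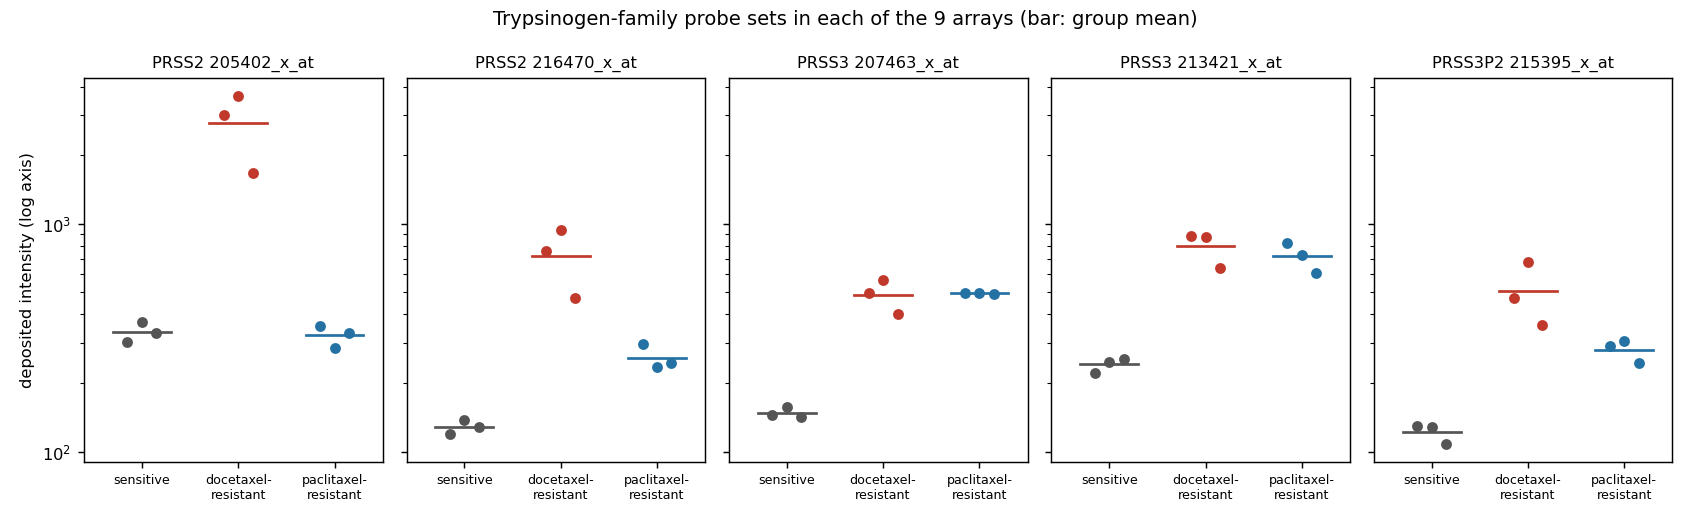
Deposited intensity (log axis) of the PRSS2, PRSS3 and PRSS3P2 probe sets in each of the 9 arrays; points are arrays and bars are group means. PRSS2 205402_x_at has paclitaxel-resistant arrays at the sensitive level, whereas both PRSS3 probe sets have them at the docetaxel-resistant level and PRSS2 216470_x_at and PRSS3P2 have them in between.

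Over the 9 arrays the log2 values of PRSS2 216470_x_at correlated with those of PRSS3P2 at r = 0.961 and with the PRSS3 probe sets at 0.774 and 0.833. PRSS2 205402_x_at correlated with PRSS3P2 at 0.787 and with the PRSS3 probe sets at 0.457 and 0.547, and with its own partner at 0.914. After each group's mean was taken away, the 2 PRSS2 probe sets still moved together over the passages (r = 0.985). These are descriptions over 9 arrays in 3 groups, and the probe sets may share matching transcripts.

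TRBC1 was high in the docetaxel-resistant line, and in the paclitaxel-resistant line its values overlapped those of sensitive cells in each of its 3 probe sets. Probe set 211796_s_at read 88.7, 82.7 and 125 in sensitive, 445, 565 and 460 in docetaxel-resistant and 73.8, 79.7 and 106 in paclitaxel-resistant replicates. Every docetaxel-resistant array was above every other array, and the sensitive and paclitaxel-resistant arrays overlapped. Means were 98.8 ± 22.9, 490 ± 65.3 and 86.6 ± 17.3 (SD, n = 3), 4.96 times the sensitive mean in the docetaxel-resistant line and 0.876 times in the paclitaxel-resistant line. The log2 differences were 2.00 ± 0.18 (1.62 to 2.39) and -0.23 ± 0.18 (-0.61 to 0.15), and -2.23 (-2.62 to -1.85) between the resistant lines.

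Probe set 210915_x_at of TRBC1 read 57.6, 70.2 and 105 in sensitive, 298, 331 and 291 in docetaxel-resistant and 68.8, 66.1 and 71.4 in paclitaxel-resistant replicates. Its mean was 3.95 times the sensitive mean in the docetaxel-resistant line, a log2 difference of 1.64 ± 0.17 (1.27 to 2.00), and 0.884 times in the paclitaxel-resistant line (-0.21, interval -0.57 to 0.15). For 213193_x_at the arrays read 66.0, 63.6 and 102, then 296, 343 and 275, then 46.7, 66.0 and 85.4, with 3.94 times the sensitive mean in the docetaxel-resistant line (1.63 ± 0.21, interval 1.17 to 2.08) and 0.854 times in the paclitaxel-resistant one (-0.27, interval -0.72 to 0.18). The docetaxel-resistant passages lay close together, with an SD of 21.4 to 65.3 (n = 3) over the TRBC1 probe sets, and docetaxel-resistant replicate 3 did not stand apart as it did for PRSS2. Sensitive replicate 3 was the highest sensitive array in each of its probe sets. The marks _x_at and _s_at of these probe sets allow for shared transcripts, and since no probe set was named for TRBC2 alone, the constant segments cannot be told apart here.

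**Figure D3:**
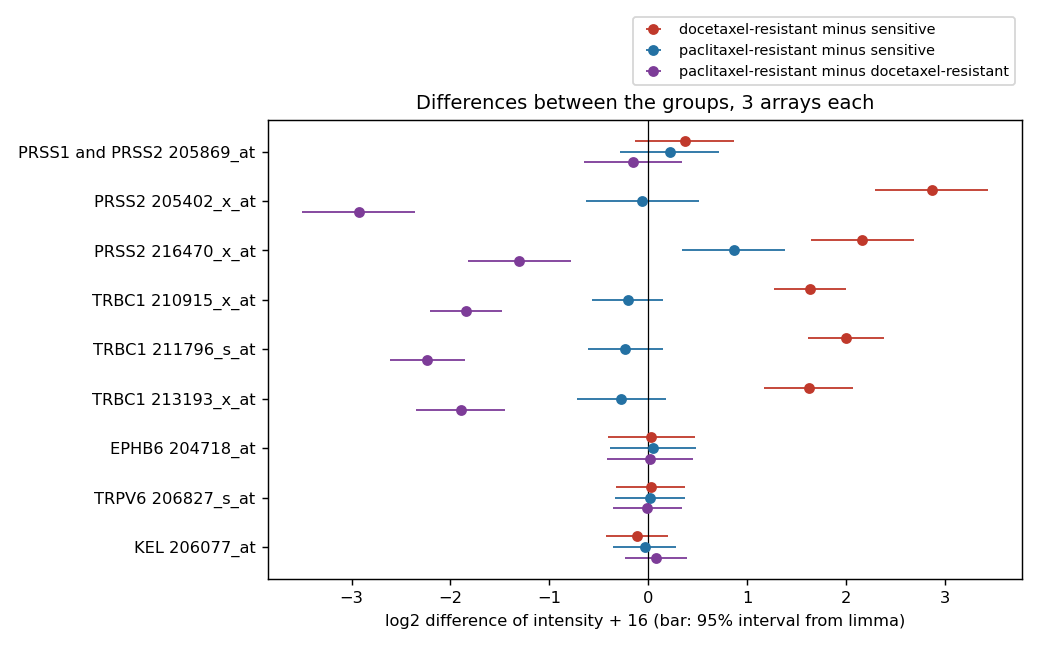
Log2 differences between groups for the 9 probe sets (x axis, intensity + 16) with 95% intervals from limma, 3 arrays a group. PRSS2 and TRBC1 lie right of 0 for docetaxel-resistant minus sensitive and left of 0 for paclitaxel- minus docetaxel-resistant, and only PRSS2 216470_x_at has a paclitaxel-resistant minus sensitive interval that leaves out 0.

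The genes on the far side of the locus differed little between groups. EPHB6, which pairs with other Eph receptors at the cell surface, read 43.0, 42.0 and 29.3 in sensitive, 59.0, 38.9 and 37.9 in docetaxel-resistant and 38.0, 51.2 and 40.7 in paclitaxel-resistant replicates. Its differences from sensitive cells were 0.03 (-0.40 to 0.47) and 0.05 (-0.38 to 0.49). TRPV6, the channel that takes calcium into epithelial cells, read 44.9, 38.7 and 50.3, then 52.3, 54.1 and 51.0, then 36.5, 55.7 and 54.8, with differences of 0.03 (-0.32 to 0.38) and 0.02 (-0.33 to 0.37). KEL, a surface endopeptidase of red cells, read 35.9, 29.1 and 26.2, then 32.7, 29.4 and 27.6, then 27.5, 31.4 and 35.4, with differences of -0.12 (-0.43 to 0.20) and -0.04 (-0.35 to 0.28). As deposited, the docetaxel-resistant arrays of TRPV6 all lay above the sensitive ones, by a small margin (51.0 against 50.3), and after normalization they overlapped. In EPHB6 and KEL the groups overlapped in each comparison on both scales. In the docetaxel comparison the highest upper bound of the 3 genes, 0.47 for EPHB6, lay under 1.17, the lowest lower bound of probe sets of PRSS2 or TRBC1 alone. The genes were chosen with these differences in view, so nothing is read from that gap.

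Counted over the group, 5 of 9 probe sets were called higher in the docetaxel-resistant line than in sensitive cells, 0 lower and 4 not called, beside 9.34% of all probe sets called higher. After normalization the arrays of those 5 did not overlap with the sensitive ones, as was so for 15.3% of all probe sets in that direction. In the paclitaxel comparison 1 of 9 was called higher and 0 lower, beside 9.21% called higher and 14.9% non-overlapping in that direction over the array. Against the docetaxel-resistant line, 0 were higher and 5 lower in the paclitaxel-resistant line, beside 0.801% called lower and 10.1% non-overlapping in that direction. Of those 5, PRSS2 216470_x_at missed the threshold in 6 of 18 alternatives and the other 4 in none. These contrasts were in view when the genes were chosen, so nothing is read from the counts. In the same order of comparisons the median log2 difference of the 9 was 1.63, -0.04 and -1.30, beside -0.05, -0.03 and 0.01 over all probe sets. Over the array, 2074 were called higher and 1848 lower in the docetaxel comparison, 2126 and 1089 without normalization between arrays. For paclitaxel- against docetaxel-resistant cells the split was 178 and 178, and 84 and 131 without normalization. The comparisons with sensitive cells share those 3 arrays.

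The log2 values of PRSS2 205402_x_at correlated with the 3 TRBC1 probe sets at r = 0.976, 0.973 and 0.955 over 9 arrays, most of which is the difference between groups: for deviations from the group means the values were 0.58, 0.46 and 0.42. PRSS2 216470_x_at correlated with them less closely, at 0.841, 0.838 and 0.809, and at 0.46, 0.33 and 0.30 for the deviations. TRBC1 probe sets correlated with each other at 0.980 to 0.993.

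On the chromosome, no measured gene lay between PRSS2 and TRBC1 in the RefSeq order used here. The measured genes next to them in that order, TRBV16 and EPHB6, did not share the docetaxel-resistant rise. PRSS3P2, of the same locus, is not among these ordered neighbours, and its probe set rose by 1.74 and 1.05, as given above. TRBV16 may therefore not be the nearest measured gene to PRSS2. TRBV16, a variable segment of the receptor locus, is the last gene before PRSS2 in the order used. It read 12.6, 44.0 and 14.5 in sensitive, 26.2, 12.0 and 11.7 in docetaxel-resistant and 19.3, 19.9 and 10.6 in paclitaxel-resistant replicates. Its groups overlapped, and its differences were -0.32 (-0.97 to 0.33) and -0.28 (-0.93 to 0.37). EPHB6 is the first measured gene after TRBC1, and its values are given above. TRPV5, the kidney-type relative of TRPV6, showed 0.37 ± 0.21 in the docetaxel and -0.06 ± 0.21 in the paclitaxel comparison (adjusted p 0.280 and 0.889, limma).

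Over the 10 measured genes before PRSS2, the 10 after KEL and TRPV5 between them, 33 probe sets of 21 genes were tested. Over the array, 9.34% of probe sets were called higher in the docetaxel comparison and 8.32% lower, so nothing is read from small counts. Among the 33 neighbouring probe sets 2 rose and 0 fell (limma, with 4 and 1 at an unadjusted p under 0.05). Their range was -0.34 to 1.20, with a median of -0.11. Both probe sets that rose belong to TCAF1, a regulator of the cold-sensing channel TRPM8. For 212979_s_at it read 18.7 in sensitive, 71.8 in docetaxel-resistant and 68.4 in paclitaxel-resistant arrays. That probe set rose by 1.20 ± 0.17 and 1.25 ± 0.17 in the docetaxel and paclitaxel comparisons (adjusted p 0.000578 and 0.000410, limma), and 212981_s_at by 1.14 ± 0.24 and 1.18 ± 0.24 (adjusted p 0.00639 and 0.00503).

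In the paclitaxel comparison a further TCAF1 probe set, 204403_x_at, rose by 0.71 (adjusted p 0.0130, limma), a call that was lost without sensitive replicate 3 (adjusted p 0.0587) and without paclitaxel-resistant replicate 2. NDUFB2, a subunit of respiratory complex I at the far left of the stretch, fell by 0.58 and 0.70 in its 2 probe sets (adjusted p 0.00970 and 0.00415, limma). Between the resistant lines 0 of the 33 neighbouring probe sets were called by limma, with differences of -0.43 to 0.47, of which 4 had an unadjusted p under 0.05. Over all probe sets 0.801% were called higher and 0.801% lower in that contrast, so nothing is read from the 0.

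**Figure D4:**
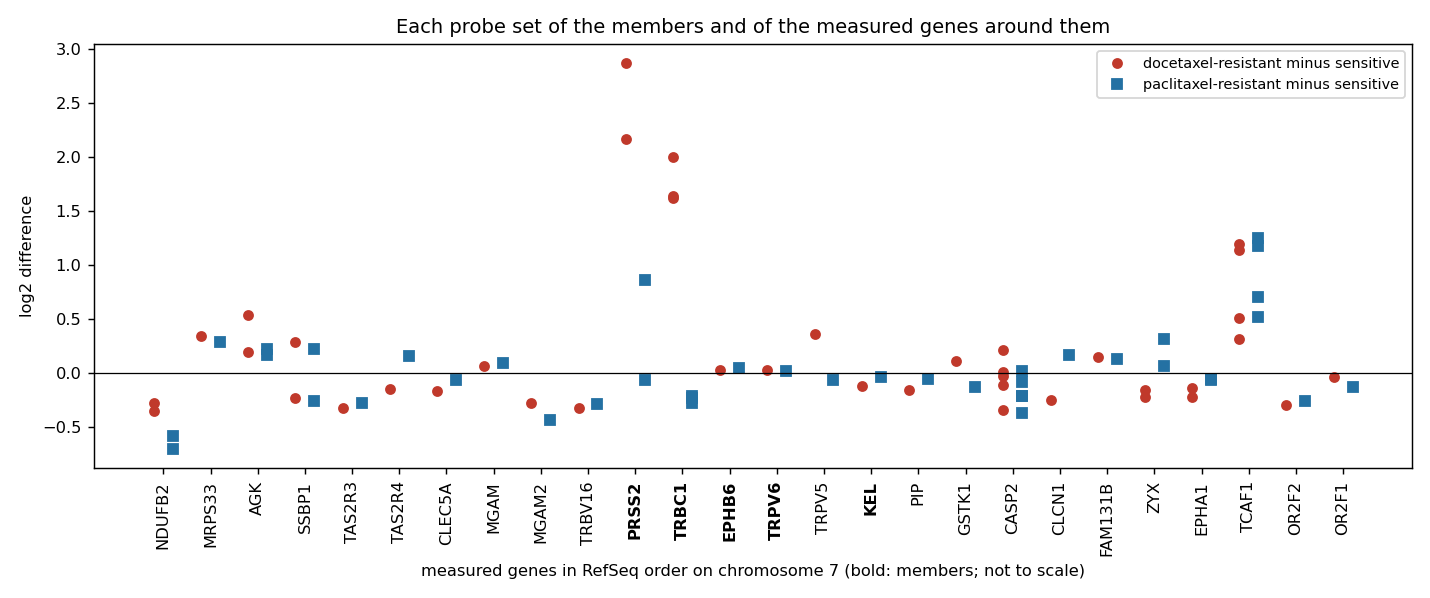
Log2 difference from sensitive cells (y axis) of each probe set with 1 gene symbol, with measured genes in chromosome 7 order on the x axis, not to scale; the probe set shared by PRSS1 and PRSS2 is left out. PRSS2 and TRBC1 rise to between 1.63 and 2.87 in the docetaxel-resistant line. The highest of the other genes shown is TCAF1 at 1.20 in that line and 1.25 in the paclitaxel-resistant line. PRSS3P2, which rose by 1.74 and 1.05, is not shown.

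The genes whose pattern was most like that of PRSS2 205402_x_at over the 9 arrays, by Pearson r of log2 values among all probe sets of other single genes, were ABCB4 (r = 0.980), TRBC1 (0.976 and 0.973), DENND2A (0.973) and SNRPD2 (0.971). Of these 5 probe sets, 4 belong to chromosome 7, among them those of TRBC1, a gene chosen with this pattern in view. The share of chromosome 7 over the array was not counted. ABCB4, a phospholipid transporter, read 7.41, 18.6 and 10.9 in sensitive, 127, 98.8 and 79.7 in docetaxel-resistant and 17.1, 7.10 and 7.28 in paclitaxel-resistant replicates, and has 236 measured genes between it and PRSS2. DENND2A, an exchange factor for Rab proteins, read 43.2, 51.3 and 43.1, then 101, 148 and 102, then 51.1, 47.0 and 49.4, and has 12 measured genes between it and PRSS2. Of its other probe sets, 53991_at read 80.9, 157 and 89.8 in the 3 groups and rose by 0.61 in the docetaxel comparison (adjusted p 0.0422, limma), while 221886_at read 8.33, 7.57 and 7.34, under the added 16, and showed -0.09.

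For PRSS2 216470_x_at the nearest patterns were those of CTSH (0.987), TAGLN (0.982), NENF (0.981), TCF25 (0.980) and TP53TG1 (0.976), and 1 of these 5 is on chromosome 7. All 3 TRBC1 probe sets were most like PPIB, a cyclophilin of the endoplasmic reticulum, at r = 0.986 to 0.988, although its difference in the docetaxel comparison was only 0.53 for 200967_at. Of the 5 nearest to TRBC1 210915_x_at and to 211796_s_at, 1 each is on chromosome 7, PRSS2 itself. Of the 5 nearest to 213193_x_at, 0 are. The nearest pattern to EPHB6 was IFNA4 (0.953) and the nearest to TRPV6 was AKAP7 (0.943). KEL and the probe set shared by PRSS1 and PRSS2 lay under the median level of the array and were given no such list.

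Trypsinogen is normally made by pancreatic acinar cells and TRBC1 by T cells, so markers of both were counted. Of 26 probe sets of 19 acinar markers, 0 rose and 1 fell in the docetaxel comparison, and again in the paclitaxel comparison (limma; at an unadjusted p under 0.05, 0 and 4, then 1 and 2). Their summed intensity was 599 to 679 in sensitive, 546 to 604 in docetaxel-resistant and 561 to 636 in paclitaxel-resistant arrays. The carboxypeptidase CPA1 read 6.50, 7.39 and 10.7, the pancreatic lipase PNLIP 23.3, 21.0 and 27.0, and the chymotrypsin CTRC 28.6, 26.9 and 29.2 in the 3 groups, and none of these passed the test. The marker that fell was the elastase CELA3A, by 0.45 and 0.55 (adjusted p 0.0398 and 0.0136, limma). Its docetaxel call was lost in 13 of 18 alternatives.

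Of 36 probe sets of 22 T cell markers, 1 rose and 0 fell in the docetaxel comparison (1 and 2 at an unadjusted p under 0.05) and 2 rose and 1 fell in the paclitaxel comparison. Between the resistant lines, where 0.801% of all probe sets were called higher and 0.801% lower, 0 of 36 were called by limma. Of these markers 0 had an unadjusted p under 0.05. Their summed intensity was 1170 to 1431, 1305 to 1376 and 1251 to 1364 in sensitive, docetaxel- and paclitaxel-resistant arrays. The CD3 chains that carry the receptor to the surface showed no rise with TRBC1. CD3E read 29.8, 26.4 and 30.8, CD3D 35.7, 39.5 and 34.7, CD3G 9.39 to 10.9 and CD247 24.9, 27.8 and 29.3 in the 3 groups. The exception was 204891_s_at of LCK, the kinase that starts receptor signalling, which read 5.44, 27.8 and 20.5 and rose by 0.98 ± 0.20 and 0.73 ± 0.20 (adjusted p 0.00510 and 0.0226, limma). The paclitaxel call was lost in 6 of 17 alternatives (adjusted p up to 0.0967), and the other LCK probe set was not called. RAG1, a recombinase of the receptor loci, rose by 0.53 and the surface protein CD5 fell by 0.48 in the paclitaxel comparison (adjusted p 0.0376 and 0.0284, limma), and these calls were lost in 9 of 18 and 7 of 19 alternatives.

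**Figure D5:**
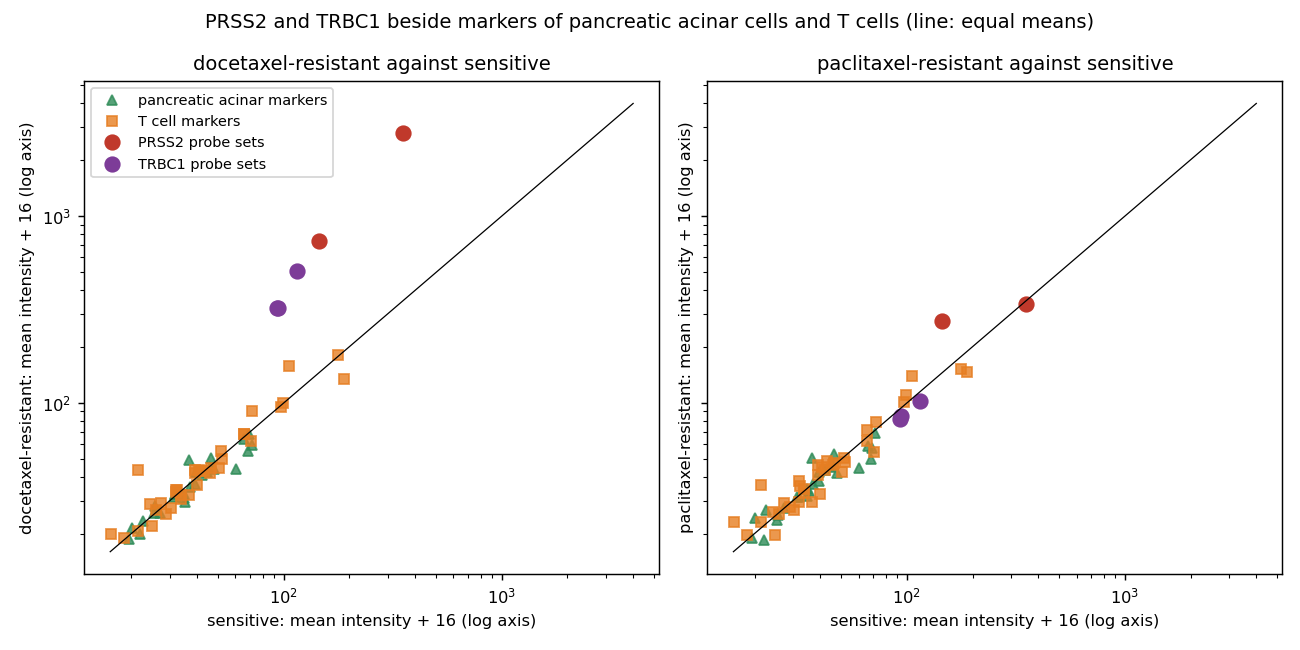
Mean intensity + 16 in each resistant line (y axis) against sensitive cells (x axis), both log axes, for markers of acinar cells and T cells and for the PRSS2 and TRBC1 probe sets; the line marks equal means. Most markers lie near the line in both panels and LCK 204891_s_at lies above it in both, while PRSS2 and TRBC1 lie above it in the docetaxel panel and, of those 5 probe sets, PRSS2 216470_x_at alone does so in the paclitaxel panel.

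Among factors that act on the enhancer and promoters of the receptor locus, 3 of 37 probe sets rose and 5 fell in the docetaxel comparison. In the paclitaxel comparison 4 rose and 3 fell. Over all probe sets, 9.34% and 9.21% were called higher and 8.32% and 9.37% lower. CBFB, the partner of RUNX factors, rose by 1.28 in the docetaxel comparison and also rose in the paclitaxel comparison (adjusted p 0.00181 and 0.00429, limma). TCF12, an E protein, rose in 208986_at by 1.34 and 0.90 (adjusted p 0.00171 and 0.0155, limma), and ID3, an inhibitor of E proteins, by 1.38 and 1.87 (adjusted p 0.00144 and 0.000183). The other probe sets of CBFB and TCF12, 206788_s_at and 215611_at, were not called in either comparison. ETS1 fell by 0.78 and 0.85 (adjusted p 0.00216 and 0.00119, limma). The paclitaxel call of TCF12 was lost with an offset of 64 and without sensitive replicate 3 or paclitaxel-resistant replicate 1. With the resistant lines set against each other, 0 of the 37 passed limma's test and 1 had an unadjusted p under 0.05. Over all probe sets only 0.801% were called higher and 0.801% lower there, so nothing is read from the 0. The TRBC1 probe sets, chosen with this contrast in view, stood at -1.85, -2.23 and -1.90 in it. A link between these factors and TRBC1 was not tested.

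Other trypsin-like proteases mostly did not pass the test. Of 48 probe sets of 33 genes, 3 rose and 2 fell in the docetaxel comparison and 2 rose and 3 fell in the paclitaxel comparison, with medians of -0.06 and -0.08. The shares over all probe sets were 9.34% and 9.21% called higher and 8.32% and 9.37% called lower. Besides the 2 of PRSS3, the third to rise with docetaxel was PRSS16, a thymus serine protease of another family than trypsin, by 0.57 (adjusted p 0.0182, limma), and that call was lost in 4 of 18 alternatives. PLAT, the tissue plasminogen activator, fell by 2.14 ± 0.23 and 1.84 ± 0.23 (adjusted p 8.56e-05 and 0.000229, limma). PLAU, the urokinase, fell by 0.55 and 1.62 in 205479_s_at (adjusted p 0.0165 and 1.35e-05, limma). Its docetaxel call was lost with an offset of 1 and without sensitive replicate 3 or docetaxel-resistant replicate 3. PLAU 211668_s_at was not called in the docetaxel comparison and fell by 1.56 in the paclitaxel comparison (adjusted p 3.15e-05, limma).

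Of 29 probe sets of 19 protease inhibitors, 2 rose and 7 fell in the docetaxel comparison and 1 rose and 8 fell in the paclitaxel comparison, beside 9.34% and 9.21% of all probe sets called higher and 8.32% and 9.37% called lower. The falls came from 5 and 6 genes, since SERPINA1 and TFPI2 count with 2 probe sets each, and whether inhibitors fell more than other genes was not tested. The inhibitor that rose in both was SPINT2, a Kunitz-type membrane inhibitor, by 0.65 and 0.60 (adjusted p 0.00976 and 0.0146, limma), named after its values were seen. SERPINA1, the alpha-1-antitrypsin gene whose product blocks trypsin and elastase, fell by 4.03 ± 0.19 and 2.60 ± 0.19 in 202833_s_at (adjusted p 5.38e-08 and 3.87e-06, limma). TFPI2, a Kunitz inhibitor of trypsin and plasmin, fell by 1.31 ± 0.18 and 1.40 ± 0.18 in 209278_s_at (adjusted p 0.000447 and 0.000276), and SERPINE2, protease nexin 1, fell by 0.87 and 1.21 (adjusted p 0.00167 and 0.000170). SPINK1, the trypsin inhibitor that acinar cells store with trypsinogen, showed -0.41 in the docetaxel comparison, which did not pass the test, and fell by 0.67 in the paclitaxel comparison (adjusted p 0.0133, limma). That call was lost without paclitaxel-resistant replicate 2 (adjusted p 0.0583). Of 3 measured protease-activated receptors, 0 were called by limma in the docetaxel comparison (1 had an unadjusted p under 0.05), and F2R, the thrombin receptor, fell by 0.80 in the paclitaxel comparison (adjusted p 0.00842, limma), a call lost without normalization (adjusted p 0.0533).

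Of 27 probe sets of 17 relatives of EPHB6, Eph receptors and ephrins, 2 rose and 3 fell in the docetaxel comparison. In the paclitaxel comparison 3 rose and 3 fell. These counts stand beside 9.34% and 9.21% of all probe sets called higher and 8.32% and 9.37% called lower. Whether these relatives moved more than other genes was not tested. EFNB2, an ephrin-B ligand, fell by 1.39 ± 0.15 and 1.53 ± 0.15 in 202668_at (adjusted p 9.33e-05 and 4.03e-05, limma). EFNA1 rose by 1.40 ± 0.16 and 1.67 ± 0.16 (adjusted p 0.000107 and 2.47e-05, limma) and EFNA3 by 0.82 and 1.21 (adjusted p 0.00838 and 0.000742). EFNB1 showed -0.14 and -0.11 and did not pass the test. The receptor EPHA2 rose by 0.85 in the paclitaxel comparison (adjusted p 0.00183, limma) and showed 0.26 in the docetaxel comparison, where it was not called.

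Around KEL, XK, the membrane protein to which Kell is bound on red cells, fell by 0.69 and 0.46 (adjusted p 0.00389 and 0.0317, limma), and its paclitaxel call was lost in 6 of 18 alternatives. Of 15 probe sets of 10 Kell partners, neprilysin-like proteases and their endothelin substrates, 1 rose and 5 fell in the docetaxel comparison and 0 rose and 3 fell in the paclitaxel comparison (limma; 1 and 4 at an unadjusted p under 0.05). Beside these and the next counts, 9.34% and 9.21% of all probe sets were called higher and 8.32% and 9.37% lower. The endothelin receptor EDNRB fell by 1.59 ± 0.15 and 1.71 ± 0.15 in 204271_s_at (adjusted p 3.28e-05 and 1.81e-05, limma). Around TRPV6, 3 of 29 probe sets of 14 TRPV channels and calcium transport partners rose and 1 fell in the docetaxel comparison, and 4 rose and 1 fell in the paclitaxel comparison. RAB11A, which recycles TRPV6 to the membrane, rose by 1.18 and 0.72 in 200863_s_at (adjusted p 0.000444 and 0.00840, limma), and CALB2, the calcium-binding calretinin, fell by 2.16 ± 0.15 and 2.52 ± 0.15 (adjusted p 2.29e-06 and 6.91e-07).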

How the data were processed

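Each of 9 arrays measured 5 µg of total RNA from 1 passage of MDA-MB-231 cells, 3 passages for each group. The deposited values are a linear intensity per probe set, made with Affymetrix Expression Console 1.1.2 and PLIER per the submitters' processing notes; how the authors corrected background, normalized and made detection calls is not given in the sources used here. Of 22283 probe sets 68 controls were left out. Of the other 22215, 19065 named 1 gene, 1043 several and 2107 none in the platform annotation. Values became log2(intensity + 16). Array medians differed by 0.27, and arrays were quantile-normalized. R 4.3.3 with limma 3.58.1 fitted 3 group means over all 9 arrays (6 residual and 5.82 prior degrees of freedom), with two-sided p-values adjusted by Benjamini and Hochberg within a contrast and called below 0.05; the procedure was tested on simulated data. Precision is limited by having 3 arrays a group, with a median SE of a log2 difference of 0.16. No pair of arrays held over 0.234% identical values. Promoter windows were aligned with Biopython 1.88.

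The members and companion lists were chosen with earlier results of these data known. All member probe sets were named. Of each companion list up to 4 called genes with the smallest adjusted p were open to naming per comparison with sensitive cells, as were called neighbours and PRSS3, SPINK1, EFNB1, EFNB2, TRPV5 and XK; TRBC2 and F2RL1 had no probe set with that single symbol. Of each member at or above the median level, the 5 probe sets with the highest r were listed. The alternatives were offsets of 1 and 64, no normalization, a shift to equal medians, a filter on level, 1 value per gene, a spread trend, fits of 2 groups, a replicate block and leaving out each array.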

Additional observations from a re-analysis of the deposited data

Results flagged for a closer look

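In 5 probe sets of the companion lists the resistant lines differed from each other by limma's test (Benjamini-Hochberg adjustment over 22215 probe sets), with 3 arrays a group, so that their effects against the shared sensitive cells were unequal. PLAU, the urokinase gene, was lower in the paclitaxel- than in the docetaxel-resistant line, with a difference of -1.07 in 205479_s_at (adjusted p 0.00235) and -1.17 in 211668_s_at (adjusted p 0.00235). SERPINA1, the alpha-1-antitrypsin gene, was 1.42 higher in the paclitaxel-resistant line in 202833_s_at (adjusted p 0.00272), a call lost with an offset of 64 (adjusted p 0.0761). In 211429_s_at SERPINA1 was 1.11 higher (adjusted p 0.0186), a call lost with an offset of 64, without docetaxel-resistant replicate 1 or 2 and without paclitaxel-resistant replicate 1 or 3 (adjusted p up to 0.0968). AXL, a receptor tyrosine kinase, showed -0.85 in 202685_s_at (adjusted p 0.0151), lost in 5 of 18 alternatives, among them without docetaxel-resistant replicate 1 or 2 and without paclitaxel-resistant replicate 2.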

How the results depend on the processing

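PRSS2 205402_x_at stood at 2.52 to 3.25 in the docetaxel comparison and TRBC1 211796_s_at at 1.65 to 2.15 in their 19 alternatives, past the threshold in each; PRSS2 216470_x_at (1.87 to 2.52) and the other TRBC1 probe sets (1.27 to 1.81 and 1.26 to 1.80) were so in their 18. PRSS2 216470_x_at missed the threshold in 8 of 18 alternatives in the paclitaxel comparison, with 0.40 for the mean of a gene's probe sets, and in 6 of 18 between the resistant lines: an offset of 1, without docetaxel-resistant replicate 1 or 2, and without any 1 of the paclitaxel-resistant arrays. The members were chosen with these contrasts in view, so how often they passed describes the processing and is no test of them. No result changed its direction while called. Between the resistant lines 356 probe sets were called, 84 with an offset of 1, 215 without normalization, 235 with 1 value per gene (its highest probe set) and 214 with a replicate block. With 1 value per gene, 11963 in all and so fewer features, 2510 (highest) and 2528 (mean) were called in the docetaxel comparison in place of 3922, and 2579 and 2604 in the paclitaxel comparison in place of 4128. Leaving out 1 array gave 2447 (without docetaxel-resistant replicate 3) to 3970, 3070 to 4263, and 111 (without docetaxel-resistant replicate 2) to 421 calls for docetaxel, for paclitaxel and between the resistant lines; the last fell to 137 and 145 without docetaxel-resistant replicates 1 and 3, and to 223, 135 and 155 without paclitaxel-resistant replicates 1, 2 and 3. Except where fewer features or arrays were used, the cause was not tested. The replicate numbers share no stated source: same-numbered arrays correlated at -0.57 to 0.39 in their deviations, over 0.1 in 3 of 9 pairs, and other-numbered ones at -0.57 to 0.58. With the replicate block 3596 and 3821 probe sets were called in the comparisons with sensitive cells, and 5, 1 and 5 of the 9 members. Median differences of all probe sets were -0.10 and -0.07 after a shift to equal medians and 0.03 and 0.01 without normalization in the docetaxel and paclitaxel comparisons. In each array 24.0 to 27.0% of values lay under 16, among them most of those of the probe set shared by PRSS1 and PRSS2. How well replicates agree at that level was not tested.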
